A study of Mus musculus with 48 samples.

Results

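The genes described here are the nuclear genes of the mitochondrial respiratory chain and ATP synthase. Members were all rows of the gene expression table annotated as protein coding whose symbol starts with Nduf (complex I), Sdh (complex II), Uqcr (complex III), Cox4 to Cox8 (complex IV) or Atp5 (ATP synthase). The rule took 98 of 54532 rows, which carry 97 symbols because Atp5o appears under 2 gene identifiers. Of these, 44 belong to complex I, 8 to complex II, 8 to complex III, 20 to complex IV and 18 to ATP synthase, and the prefixes also bring in assembly factors of complexes I and II. Ndufa4 and Ndufa4l2 were counted with complex IV, where the NDUFA4 protein is known to sit.

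RNA was sequenced from the brain hemisphere and the hippocampus of male wild-type C57Bl6 mice. Mice received saline (the vehicle, 0.9%) or angiotensin II, the peptide hormone that raises blood pressure, at 0.7 mg per kg per day over 2 weeks, delivered by osmotic minipump. Hydralazine, a vasodilator, was added to the drinking water of a subset under either treatment, at 50 mg per kg. The 8 groups were thus vehicle, angiotensin II, vehicle plus hydralazine and angiotensin II plus hydralazine in each of the 2 regions, with 6 libraries per group and 48 in all. All groups share sex, strain and the minipump, and a mouse's age is not given in the labels used here. The labels do not say whether libraries with the same number in both regions came from the same mouse, nor whether each library of a group is a different mouse. A p-value here therefore reflects library-to-library spread, which may be technical.

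The respiratory chain passes electrons from NADH, taken up by complex I, and from succinate, taken up by complex II, through complexes III and IV to oxygen. Complexes I, III and IV pump protons across the inner mitochondrial membrane, and ATP synthase makes ATP as the protons flow back. Most subunits are encoded in the nucleus, and a small hydrophobic core of every complex except II is encoded by mitochondrial DNA. Neurons spend much of their ATP on ion pumping and synaptic transmission.

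Depth and the number of genes listed varied between libraries. Reads in genes ranged from 15.77 to 23.5 M (mega-reads) per library in the hemisphere (median 18.97) and from 1.21 to 21 M in the hippocampus (median 17.96). In the hippocampus 6 libraries listed fewer than 16000 genes above 0. Libraries of similar depth differed in this count. Hippocampal replicate 4 of vehicle plus hydralazine had 16.7 M reads and 12923 genes, and replicate 6 of both drugs 16.18 M and 21703. The reason was not tested. The shallowest library, replicate 3 of vehicle plus hydralazine, listed 14 members at 0. In 43 of the 48 libraries only 2 members were at 0. These were Cox8c, a testis form of a complex IV subunit, and the second Atp5o identifier, which were at 0 in every library. The remaining 96 members passed the filter of at least 0.5 FPKM (fragments per kilobase of gene and mega-read) in at least 6 libraries.

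One library in each region stood apart, and both carried the number 6 of the angiotensin II group. In the hemisphere this library spent 1.774% of its reads on the 98 rows, against 1.236% to 1.527% in the other 23 hemisphere libraries. In the hippocampus it spent 1.178%, against 1.795% to 2.477% in the other 23. Mitochondrial genome transcripts took 2.77% of its reads in the hemisphere (5.7% to 7.22% in the others) and 5.74% in the hippocampus (6.4% to 10.53%). The 2 libraries therefore deviated in opposite directions for nuclear members and in the same direction for mitochondrial transcripts. The deviation was not limited to members. Cytosolic ribosomal protein genes had a mean log2(FPKM + 0.5) of 6.17 in the hemisphere library, against 5.86 to 6.01 in the other 5 of its group, and of 5.84 in the hippocampal one, against 6.89 to 7.17. Each comparison that uses angiotensin II libraries is given with and without these 2, at least by its median over the members.

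**Figure D1:**
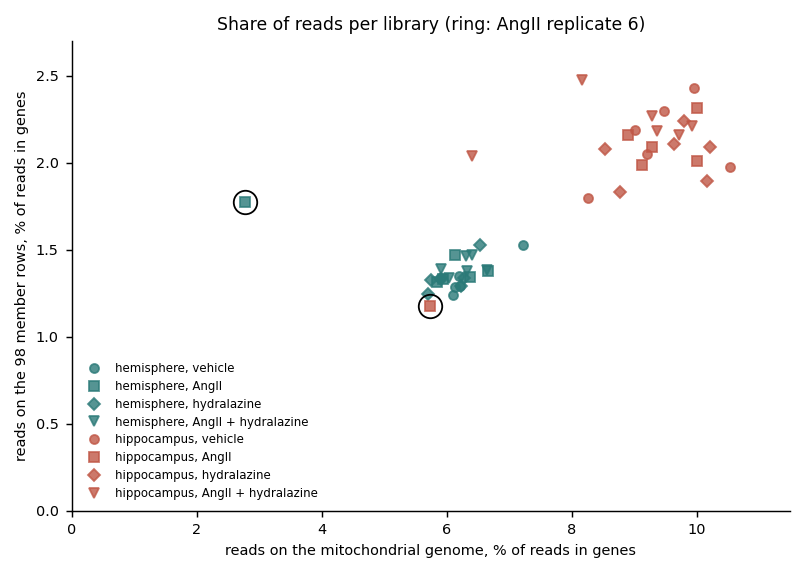
Each point is 1 of 48 libraries, with the share of reads on the mitochondrial genome on the x axis and the share on the 98 member rows on the y axis, both as percent of reads in genes. The ringed angiotensin II replicate 6 libraries lie at 1.774% (hemisphere) and 1.178% (hippocampus) on the y axis, outside the range of the other 23 libraries of their region.

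Promoter stretches of 5 members are shown. Each belongs to the member of its complex with the largest called increase in the hippocampus, among those whose stretch before the start was short enough to print and held a searched motif. The motifs were GCATGCGC, the core bound by NRF1, CCGGAAG, bound by the ETS factor GABPA, and AAGATGGCG, bound by YY1. These factors are known regulators of nuclear genes for mitochondrial proteins. Each was searched on both strands in 300 bases, from 250 before to 50 after the RefSeq gene start (GRCm38.p6). Promoters were matched to 80 of the 98 members by gene identifier, symbol or synonym. Each stretch runs 5′ to 3′ on the strand of the gene from 20 bases before its first motif to the last base before the start, and capitals mark the motifs.
Cox6a1: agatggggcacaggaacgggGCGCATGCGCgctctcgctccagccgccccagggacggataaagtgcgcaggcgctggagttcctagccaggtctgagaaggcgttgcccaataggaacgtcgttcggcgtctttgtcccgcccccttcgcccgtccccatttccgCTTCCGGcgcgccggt
Uqcr11: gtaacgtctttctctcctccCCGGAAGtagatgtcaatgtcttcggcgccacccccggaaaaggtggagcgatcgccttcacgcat
Ndufaf8: ggatgttcacgcgttcgactCCGGAAGa
Atp5e: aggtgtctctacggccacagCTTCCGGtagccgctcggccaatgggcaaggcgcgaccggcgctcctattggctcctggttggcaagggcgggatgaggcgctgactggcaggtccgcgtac
Sdhb: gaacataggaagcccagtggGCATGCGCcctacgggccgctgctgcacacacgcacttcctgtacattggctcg

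The Cox6a1 stretch (complex IV, chr5:115348959-115349140, minus strand) held the NRF1 core on both strands in overlapping positions, 162 to 153 bases before the start, and the GABPA motif on the opposite strand 16 to 10 bases before it. The Uqcr11 stretch (complex III, chr10:80406822-80406907, minus strand) held the GABPA motif 66 to 60 bases before the start, and the NRF1 core elsewhere in its window. In Ndufaf8 (an assembly factor of complex I, chr11:120098906-120098933, plus strand) the GABPA motif lay 8 to 2 bases before the start. In Atp5e (ATP synthase, chr2:174464102-174464223, minus strand) it lay on the opposite strand, 102 to 96 bases before the start. Sdhb (complex II, chr4:140961197-140961270, plus strand) held the NRF1 core 54 to 47 bases before the start. Starts are those of RefSeq, and the gene spans given below for Cox6a1 and Uqcr11 reach past them. The ends of both stretches, with the GABPA motif of Cox6a1, lie inside those spans.

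Over the 80 matched members, the NRF1 core was found in 12 (15%), against 3.0% of all 27025 genes with a promoter of the same length. A gene was counted if any of its promoters held the motif. The GABPA motif was found in 21 (26.2%, against 9.9%) and the YY1 motif in 8 (10%, against 1.6%). Median promoter GC content was 58.8% in the members and 53.3% over all genes, and the shares were not matched for it. A match is a description of these letters only. Median log2 fold changes of the hippocampus over the hemisphere in vehicle mice were 1.09 in members with the NRF1 core and 0.97 in those without. For the GABPA motif the medians were 1.04 and 0.92, and for the YY1 motif 1.05 and 0.97, with ranges that overlapped in each case.

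The comparison of regions in vehicle mice asks how these genes differ between the hippocampus and the hemisphere at baseline. Most members of each complex were higher in the hippocampus. Of 96 members tested, 72 were higher and 2 lower at a limma adjusted p under 0.05. Over all 17643 genes tested, 12.7% were called higher and 29.5% lower. The median log2 fold change on log2(FPKM + 0.5) was 0.95 over the members, a 1.93-fold difference, against -0.21 over all genes. Since the tissue is bulk, fewer cells of a type and less RNA per cell cannot be told apart, and region and any difference in how the 2 sets of libraries were prepared cannot be told apart either.

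By complex, 34 of 44 members of complex I were called higher and none lower (median log2 fold change 0.98, limma). Complex III had 6 of 8 higher and 0 lower (median 1.01), and complex IV 13 of 19 higher and 0 lower (median 0.89). ATP synthase had 14 of 17 higher and 1 lower (median 1.01). Complex II, the one complex with no mitochondrially encoded subunit, had 5 of 8 higher and 1 lower, with the smallest median, 0.45. The difference between complexes was not tested, and its median moves to 0.75 once a trend on gene length is fitted in every library and taken out.

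Values of the 6 vehicle libraries of each region did not overlap for 63 of the 98 members that were higher and 3 that were lower in the hippocampus, and they overlapped for 32. Over all genes tested, 10.4% were higher and 21.3% lower with no overlap. The 3 lower members were Sdha, Uqcrc2 and Atp5a1. They encode the flavoprotein of complex II, a core protein of complex III and the alpha subunit of ATP synthase, with coding lengths of 1992, 1359 and 1659 nt.

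**Figure D2:**
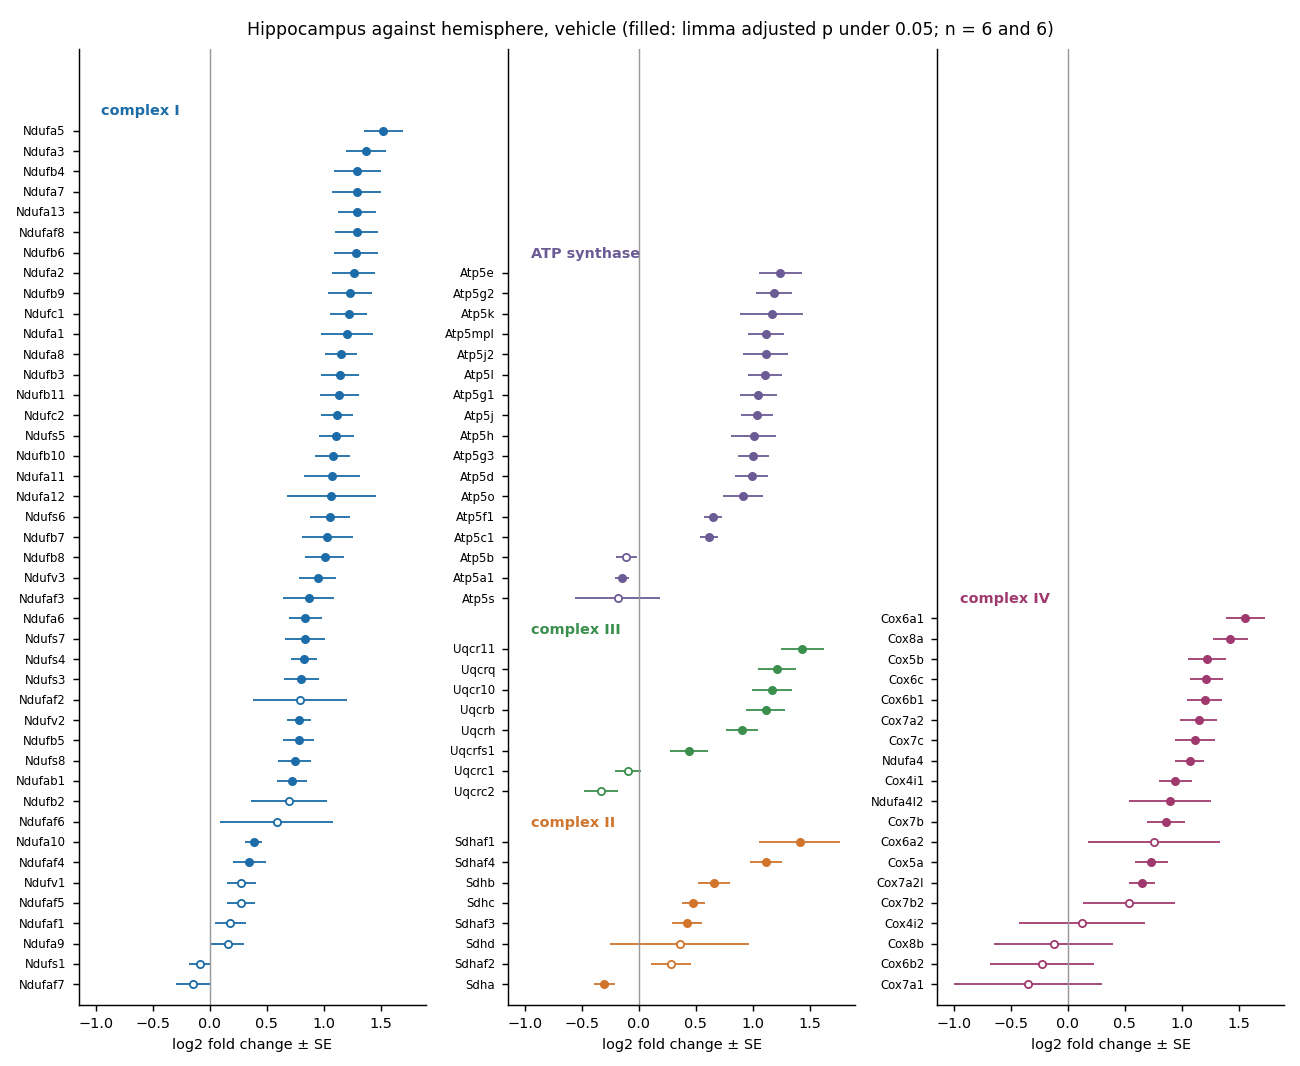
Log2 fold change of the hippocampus over the hemisphere in vehicle mice for members tested, with bars of 1 SE from limma, grouped by complex. Most members lie near or right of 1, while Sdha, Uqcrc2, Atp5a1, Atp5b and a few low-level isoforms lie at or left of 0.

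Complex I oxidizes NADH. It has 7 nuclear core subunits, which hold the flavin and iron-sulfur clusters, and many small accessory subunits around them. Of 29 accessory subunits 27 were called higher (median log2 fold change 1.11, limma), all 29 having a positive estimate, whereas 4 of 7 core subunits were (median 0.75). Of 8 assembly factors 3 were higher (median 0.47).

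Ndufa5 (accessory subunit, ENSMUSG00000023089, GRCm38 chromosome 6, 24518666 to 24528013) had the largest difference of complex I. Its FPKM had a lowest, median and highest value of 76.5, 86.8 and 116 in the 6 hemisphere vehicle libraries and of 218, 267 and 297 in the hippocampal ones. All 6 hippocampal values lay above all hemisphere values. The log2 fold change was 1.52 ± 0.17 (SE, n = 6 per group, limma adjusted p = 8.69e-10). Ndufa3 went from 73.2 ± 9.36 to 193 ± 40.4 FPKM (mean ± SD, n = 6 each). The log2 fold change was 1.37.

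Among the core subunits of complex I, Ndufv2 and Ndufs3, Ndufs7 and Ndufs8, which carry iron-sulfur clusters or belong to the hydrophilic arm, were called higher, with log2 fold changes of 0.79, 0.81, 0.84 and 0.75. Ndufs1, the largest core subunit, had a lowest, median and highest FPKM of 13.8, 14.8 and 15.4 in the hemisphere and 11.6, 14.5 and 15.4 in the hippocampus, and the groups overlapped fully. Its log2 fold change of -0.08 (limma adjusted p = 0.52) did not pass the test, nor did that of the flavoprotein Ndufv1 (0.28, adjusted p = 0.0779). The negative estimate of Ndufs1 became 0.28 with the length trend removed.

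Complex II oxidizes succinate and is also an enzyme of the citric acid cycle. Sdha (ENSMUSG00000021577, chromosome 13, 74322254 to 74350280), which binds the substrate and the flavin, ranged from 88.8 to 98.7 FPKM in the hemisphere (median 96.8) and from 68.6 to 84.3 in the hippocampus (median 78.1). The hippocampal values were all below the hemisphere values. The log2 fold change was -0.30 ± 0.09 (SE, n = 6 per group, limma adjusted p = 0.00629), and it turned to 0.02 (adjusted p = 0.881) with the length trend removed. Sdhb, the iron-sulfur subunit, and Sdhc, a membrane anchor, were called higher instead, with log2 fold changes of 0.66 and 0.48.

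The other membrane anchor, Sdhd, ranged from 60.9 to 79.4 FPKM in hemisphere vehicle libraries and from 83.9 to 94.5 in hippocampal ones, with no overlap. Its log2 fold change of 0.36 ± 0.61 (SE) did not pass (limma adjusted p = 0.679). The fit shares 1 spread over all groups, and Sdhd was listed at 0 in the shallow replicate 3 of hippocampal vehicle plus hydralazine. In that library 1 read in a gene of 1 kb is worth 0.722 FPKM, and the reason for the 0 was not tested. With library weights the limma adjusted p of Sdhd was 9.55e-06, while quantile normalization turned its estimate slightly negative. The assembly factor Sdhaf1 was low in both regions, with 1.81 ± 0.362 and 5.74 ± 1.59 FPKM (mean ± SD, n = 6 each, limma adjusted p = 0.00123).

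Complex III passes electrons from ubiquinol to cytochrome c. Uqcr11, a small subunit (ENSMUSG00000020163, chromosome 10, 80402997 to 80406830), ranged from 97.6 to 143 FPKM in the hemisphere (median 127) and from 269 to 397 in the hippocampus (median 340), without overlap. Its log2 fold change was 1.43 ± 0.19 (SE, n = 6 per group, limma adjusted p = 3.3e-08). The large core proteins Uqcrc1 and Uqcrc2 had estimates of -0.09 (limma adjusted p = 0.545) and -0.33 (adjusted p = 0.0722), which became 0.23 and -0.17 with the length trend removed. The Rieske protein gene Uqcrfs1 was called higher, with a log2 fold change of 0.44.

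Complex IV reduces oxygen to water. All 11 of its general nuclear subunits were called higher in the hippocampus, with a median log2 fold change of 1.15 (limma). Cox6a1 (ENSMUSG00000041697, chromosome 5, 115345642 to 115348981) had the largest difference of all members. It ranged from 438 to 651 FPKM in the hemisphere (median 480) and from 1206 to 1763 in the hippocampus (median 1487), and no value overlapped. Its log2 fold change was 1.56 ± 0.17 (SE, n = 6 per group, limma adjusted p = 2.58e-10), a 2.94-fold difference.

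Cox8a, a small transmembrane subunit, had the highest level of all members per gene length. Its range was 625 to 912 FPKM in the hemisphere (median 684) and 1532 to 2163 in the hippocampus (median 1953). All hippocampal libraries lay above all hemisphere libraries, and the log2 fold change was 1.43 ± 0.15 (SE, limma adjusted p = 2.36e-10).

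Several complex IV subunits exist as a general form and a form used in muscle, lung, testis or hypoxia. In both regions the general forms were far above the others. Cox4i1 averaged 369 ± 52.1 FPKM in hemisphere vehicle libraries and Cox4i2, the form known from lung and oxygen sensing, 2.63 ± 0.446 (mean ± SD, n = 6 each). Cox6a1 averaged 501 ± 76.8 and its muscle form Cox6a2 8.57 ± 1.29. Of the 7 restricted forms tested, 1 was called higher in the hippocampus, Ndufa4l2 (log2 fold change 0.89, limma adjusted p = 0.0422).

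The other 6 restricted forms did not pass. Cox4i2, Cox6b2, Cox7a1, Cox7b2 and Cox8b were each listed at 0 in at least 1 hippocampal vehicle library. The estimates of 4 of these, Cox4i2 (0.13), Cox6b2 (-0.23), Cox7a1 (-0.35) and Cox8b (-0.13), changed sign when 1 hippocampal vehicle library was left out.

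ATP synthase has a catalytic F1 head, a ring of c subunits that turns in the membrane, a peripheral stalk and small membrane subunits. All 3 genes of the identical mature c subunit were called higher. Atp5g3, the most abundant, ranged from 99.0 to 137 FPKM in the hemisphere and from 211 to 262 in the hippocampus, and Atp5g1, the least abundant, from 20.8 to 31.3 and from 29.1 to 67.8. The log2 fold changes were 1.01, 1.19 and 1.05 for Atp5g3, Atp5g2 and Atp5g1. All 4 stalk members and all 4 membrane members tested were also called higher, with medians of 0.96 and 1.12.

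The large subunits of the F1 head did not follow. Atp5a1, the alpha subunit, ranged from 305 to 316 FPKM in the hemisphere (median 314) and from 266 to 298 in the hippocampus (median 279), so the hippocampal values were all below. Its log2 fold change was -0.15 ± 0.06 (SE, n = 6 per group, limma adjusted p = 0.0483), and the call was lost in 36 of 48 fits that each left out 1 library. The catalytic beta subunit Atp5b overlapped between regions, with a log2 fold change of -0.11 (limma adjusted p = 0.367). With the length trend removed both estimates were positive, 0.09 and 0.22. The smaller head subunits Atp5c1, Atp5d and Atp5e were called higher, with log2 fold changes of 0.62, 0.99 and 1.24.

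Members with short coding sequences differed most between regions. The median coding length of the members was 426 nt, and 55.1% had at most 450 nt, against 7.2% of 11809 protein-coding genes with a mean of at least 1 FPKM. In members of up to 450 nt the median log2 fold change was 1.12 (52 genes), from 450 to 900 nt 0.79 (28 genes) and from 900 to 1800 nt 0.16 (13 genes). The 2 longer members had a median of -0.19, and these last 2 classes hold under 20 genes. Among all 11809 genes the same classes had medians of 0.58, 0.13, -0.18 and -0.37.

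Across genes, Spearman's rho of regional difference with coding length was -0.64 over 95 members and -0.36 over all 11809 genes. These genes are measured in the same 12 libraries and are not independent. With the length trend removed, 76 members were called higher, 0 were called lower, and the median was 1.05, while 21.3% of all 17643 genes were higher and 18.7% lower with a median of 0.05. At an unadjusted p under 0.05 in the limma fit without that step, 75 members were higher and 3 lower, against 14.8% and 34% of all genes. With trends on coding length and GC content both removed, an alternative chosen after seeing the data, 74 were higher and 0 lower, with a median of 0.77. In that fit 21.8% of all 13863 genes were higher and 17.5% lower, with a median of 0.05.

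**Figure D3:**
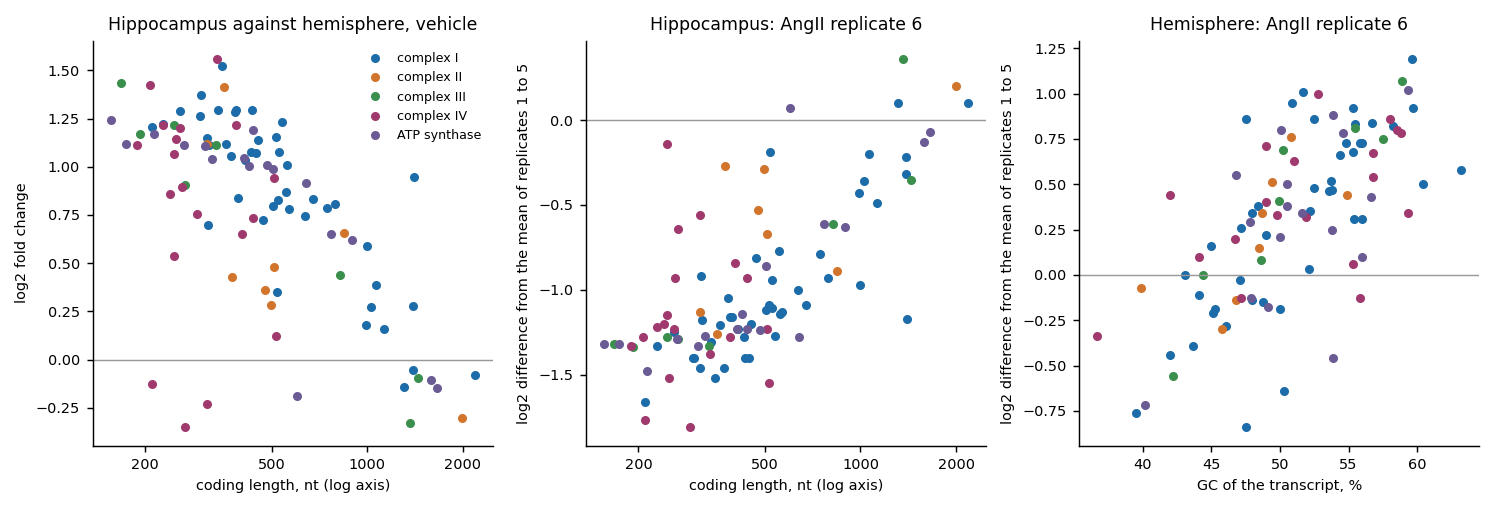
Each point is 1 member, coloured by complex; the left panel plots the log2 fold change between regions against coding length (log axis), and the middle and right panels plot the log2 difference of angiotensin II replicate 6 from replicates 1 to 5 against coding length in the hippocampus and against transcript GC content in the hemisphere. The left panel falls with length (rho -0.64), and the middle panel rises (rho 0.71), with short members near -1.3 in the hippocampal library.

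Other gene groups from fixed lists were read beside the members in the same vehicle comparison. Cytosolic ribosomal protein genes, which are short and abundant as well, were called higher for 68 of 79 tested and lower for 1 (median log2 fold change 1.23, limma). Of 13 mitochondrially encoded subunits 8 were higher and 1 lower (median 0.89), with mt-Nd4 at 1.27 and mt-Cytb at 0.75 and mt-Nd4l at -1.22. Of 4 nuclear subunits or regulators with other names, Usmg5 (log2 fold change 1.35), Atpif1 (0.78) and Atp5mpl (1.12, itself a member) were higher, and Cyc1, which encodes cytochrome c1, did not pass (0.26, adjusted p = 0.121).

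Groups next to the respiratory chain showed no such common difference. These lists were not matched to the members in coding length, with which the regional difference varied. Of 36 assembly factors outside the naming rule 7 were higher and 4 lower (median 0.06), and of 8 electron carriers and entry enzymes 3 were higher, including Cycs, which encodes cytochrome c (0.69). Of 14 citric acid cycle genes 3 were higher and 5 lower (median -0.10), with citrate synthase Cs at -0.27. None of 19 regulators of mitochondrial biogenesis were higher, and 4 were lower. The lower ones included the coactivator gene Ppargc1b (-1.18) and the mitochondrial RNA polymerase gene Polrmt (-1.07). Of all 17643 genes tested in this comparison, 12.7% were called higher and 29.5% lower. Nrf1 and Tfam did not pass, with estimates of -0.28 (limma adjusted p = 0.326) and -0.03 (adjusted p = 0.949).

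Markers of the regions and cell types moved as well, and their part in the members' difference was not tested. Of 6 markers of hippocampal neurons 5 were higher in the hippocampus, and their summed FPKM ranged from 240 to 323 there and from 79.2 to 90.4 in the hemisphere. All 6 striatal markers and all 5 cerebellar markers were lower. The cerebellar sum ranged from 117 to 160 FPKM in the hemisphere and from 0 to 0.854 in the hippocampus, where Gabra6 was at 0 in all 6 libraries. The choroid plexus sum ranged from 481 to 838 and from 10.1 to 113 FPKM, with 5 of 6 markers tested called lower.

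For general cell types the sums differed less. The 7 neuronal markers summed to 857 to 986 FPKM in the hemisphere and 865 to 955 in the hippocampus, with 2 called higher. The astrocyte sum was 457 to 560 and 365 to 433 (3 of 6 lower), the microglial sum 104 to 116 and 136 to 171 (1 of 6 higher) and the oligodendrocyte sum 1292 to 1488 and 1089 to 1736 (1 of 6 lower). The endothelial sum was 58.8 to 85.1 and 47.8 to 89.5 (4 of 5 lower). The mural sum was 33.9 to 41.9 and 25 to 49.9 (3 of 5 lower). These counts stand beside 12.7% of all genes called higher and 29.5% called lower in the same comparison.

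Averaged over the 4 treatments, 76 members were higher and 5 lower in the hippocampus (limma), against 20.2% and 47.2% of all genes, with a median log2 fold change of 0.84. The 5 lower members were Sdha (-0.32), Uqcrc2 (-0.37), Atp5a1 (-0.14), Atp5b (-0.12) and the muscle form Cox8b (-0.61). Without the 2 angiotensin II libraries numbered 6, the counts were 77 and 3 and the median 0.92. With the length trend removed 2 members were lower, and Sdha (0.01), Atp5a1 (0.11) and Atp5b (0.22) had positive estimates, while 35.4% of all genes were higher and 30% lower. Leaving out the 6 hippocampal libraries with fewer than 16000 genes gave 83 higher and 3 lower with a median of 0.87, and in vehicle mice 79 and 2 with a median of 0.99. All genes had 31.9% higher and 49.8% lower (median -0.13) in the first of these fits, and 23.8% and 40% (median -0.14) in vehicle mice.

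Libraries with the same treatment and number were also set side by side across regions, as a description only. The median member was higher in the hippocampal library in 23 of 24 such pairs. The exception was replicate 6 of angiotensin II, with a median log2 difference of -0.56 and 19 of 96 members higher in the hippocampal library. In that pair hippocampal neuron markers were higher by 2.39 and cerebellar markers lower, at -5.13, as in the other pairs. What set this pair apart was not tested. Ribosomal protein genes had a median of -0.45 in that pair and of 0.25 to 1.57 in the other 23.

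The hippocampal library of this pair was low in members relative to replicates 1 to 5 of its group. The median log2 difference was -1.16, with 91 of 96 members lower, from -1.81 (Cox6a2) to 0.36 (Uqcrc2), against a median of 0.13 over 13398 genes with a mean of at least 1 FPKM. Cox6a1 was at 563 FPKM in it and at 1309 to 1777 in the other 5. Members of up to 450 nt had a median of -1.28 and those of 450 to 900 nt -0.94. Over all genes the same classes had -0.75 and -0.22, and genes above 1800 nt 0.35. Over 95 members the rho of this deviation with coding length was 0.71, and over 11809 protein-coding genes it was 0.58. The rho of this deviation with the regional difference in vehicle mice was -0.74 over the members and -0.52 over those genes.

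The hemisphere library numbered 6 deviated with base composition. Its median log2 difference from replicates 1 to 5 was 0.36, with 71 of 96 members higher, from -0.84 (Ndufaf2) to 1.19 (Ndufs7), against -0.01 over the same 13398 genes. Spearman's correlation of this deviation with transcript GC content was 0.66 over 95 members and 0.79 over 11809 genes. Members above 55% GC (27 genes) had a median of 0.73 and those of 45% to 50% (30 genes) 0.18, against 0.50 and -0.30 over all genes in these classes.

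The mean of log2(FPKM + 0.5) over the members of a complex summarises each group. In hemisphere libraries complex I had 5.26 ± 0.15 under vehicle, 5.36 ± 0.15 under angiotensin II, 5.28 ± 0.14 under vehicle plus hydralazine and 5.37 ± 0.08 under both drugs (mean ± SD, n = 6 each). In the hippocampus the values were 6.12 ± 0.16, 5.97 ± 0.41, 5.98 ± 0.30 and 6.2 ± 0.12 in the same order. Without replicate 6 the angiotensin II means were 5.31 ± 0.08 and 6.14 ± 0.11 (n = 5). Within a region no 2 of these means differed by more than the larger of their SDs. The lowest hippocampal libraries, at 5.15 (angiotensin II replicate 6) and 5.40 (vehicle plus hydralazine replicate 3), reached the hemisphere range.

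ATP synthase gave the same order of regions. Its hemisphere means were 5.69 ± 0.13, 5.77 ± 0.13, 5.70 ± 0.12 and 5.77 ± 0.08 (n = 6 each, in the order vehicle, angiotensin II, vehicle plus hydralazine, both), and its hippocampal means 6.45 ± 0.19, 6.33 ± 0.38, 6.30 ± 0.36 and 6.53 ± 0.10. Complex III had 6.59 ± 0.14, 6.70 ± 0.18, 6.59 ± 0.12 and 6.69 ± 0.07 in the hemisphere and 7.32 ± 0.16, 7.18 ± 0.38, 7.26 ± 0.24 and 7.42 ± 0.13 in the hippocampus. Within a region no 2 means of either complex differed by more than the larger of their SDs.

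The members of complex II had the lowest means, with 4.29 ± 0.09, 4.31 ± 0.09, 4.30 ± 0.08 and 4.35 ± 0.05 in the hemisphere and 4.84 ± 0.07, 4.73 ± 0.26, 4.55 ± 0.61 and 4.77 ± 0.18 in the hippocampus. They include the assembly factors Sdhaf1 to Sdhaf4, so these means do not rank its subunits against those of other complexes. Complex IV had 5.04 ± 0.14, 5.14 ± 0.17, 5.02 ± 0.17 and 5.12 ± 0.09, and 5.77 ± 0.43, 5.55 ± 0.52, 5.51 ± 0.44 and 5.78 ± 0.30. Without replicate 6 the hippocampal angiotensin II means were 4.83 ± 0.09 for complex II, 7.33 ± 0.11 for III, 5.74 ± 0.28 for IV and 6.48 ± 0.08 for ATP synthase (n = 5), each closer to its vehicle mean than 1 SD.

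**Figure D4:**
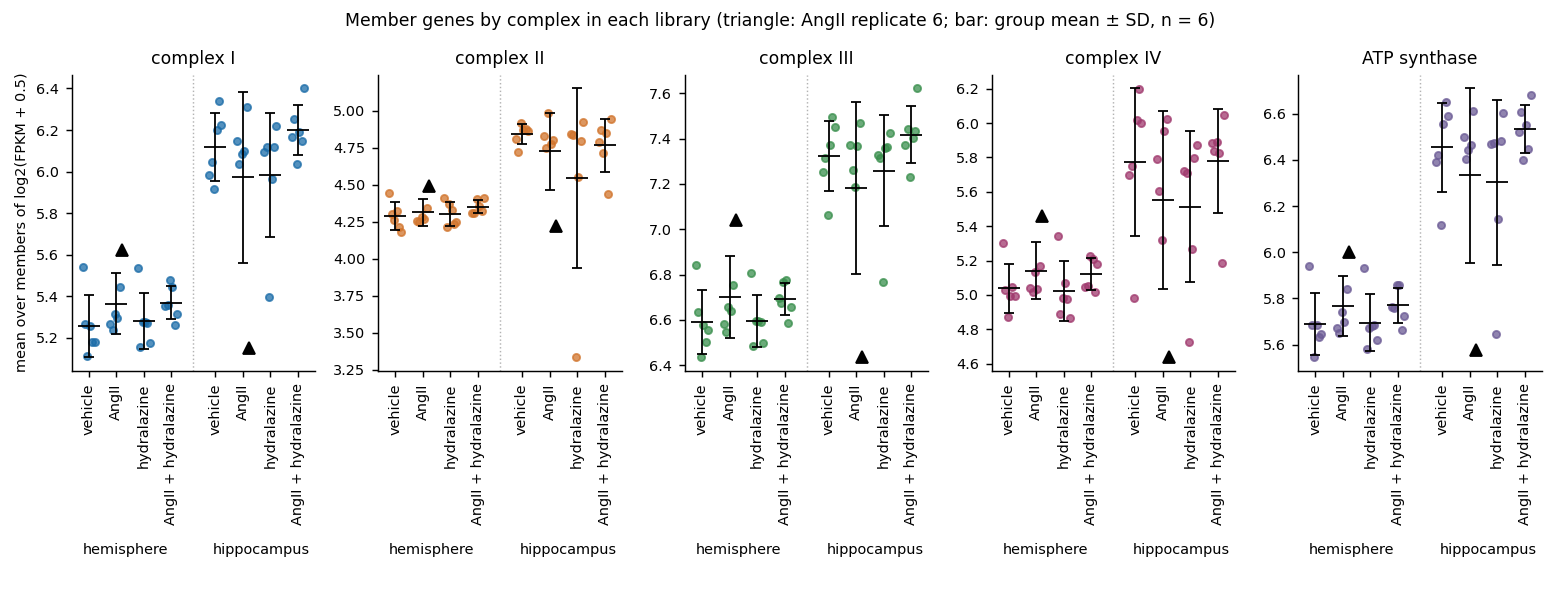
Mean over the members of a complex of log2(FPKM + 0.5) in each library (points; triangles are angiotensin II replicate 6), with the group mean and SD (n = 6, triangle included), for 4 treatments in 2 regions; the y axes differ between panels. Hippocampal groups lie above hemisphere groups in every panel, and the triangle is the highest of its group in the hemisphere and the lowest in the hippocampus.

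Angiotensin II was compared with vehicle in each region, with hydralazine to see whether the vasodilator changes the response. No member passed in any of the 13 contrasts of treatments by limma. In the hemisphere 0.0717% of 16747 genes were called for angiotensin II against vehicle. The other 5 hemisphere contrasts called 0% of 16747 genes, the 6 hippocampal contrasts 0% of 15267, and the regional difference of the angiotensin II effect 0% of 17643.

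In the hemisphere, angiotensin II gave members a median log2 fold change of 0.10 over vehicle, against 0 over all genes, with 73 of 96 estimates positive. At an unadjusted p under 0.05 there were 11 higher and 2 lower members (limma), against 4.96% and 4.28% of all genes. Without replicate 6 the median was 0.04, with 69 positive estimates and 1 higher and 1 lower member at that p, against 3.6% and 3.77% of all genes. By complex the medians were 0.11 (I), 0.06 (II), 0.13 (III), 0.12 (IV) and 0.08 (ATP synthase), and without the library 0.05, 0.00, 0.05, 0.06 and 0.01.

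The member with the smallest p there was Uqcr11. Its hemisphere FPKM ranged from 97.6 to 143 under vehicle (median 127) and from 127 to 299 under angiotensin II (median 142). The groups overlapped, and 299 was the library numbered 6, the next highest being 163. The log2 fold change was 0.39 ± 0.15 (SE, n = 6 per group, limma adjusted p = 0.479), and 0.21 without that library (adjusted p = 0.628).

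The 2 lower members were Uqcrc2 and Ndufs1. Uqcrc2 ranged from 57.3 to 64.3 FPKM under vehicle (median 60.2) and from 53.1 to 58.5 under angiotensin II (median 56.0), with some overlap. The log2 fold change was -0.12 ± 0.05 (SE, n = 6 per group, limma adjusted p = 0.486), the same to 2 decimals without the library. Ndufb9, an accessory subunit of complex I, had 0.23 (limma adjusted p = 0.497), and 0.17 without the library.

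Under both drugs the hemisphere members had a median of 0.10 over vehicle, with 82 of 96 positive, 7 higher and 1 lower at an unadjusted p under 0.05 (17 and 2 without replicate 6). Of all genes 52.2% were positive, with 2.92% higher and 2.29% lower at that p (5.41% and 4.07% without replicate 6). Angiotensin II under hydralazine gave 0.08 over hydralazine alone, with 85 of 96 positive, 4 higher and 1 lower at that p. Of all genes 51.6% were positive, 1.82% higher and 1.18% lower. These contrasts hold no angiotensin II replicate 6 library in either arm, but that library enters the shared spread. Ndufb9 again had a small p in both, with log2 fold changes of 0.22 and 0.22 (limma adjusted p = 0.878 and 1). These comparisons share libraries with those above, so they are not independent of them.

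Hydralazine alone gave hemisphere members a median of 0.00 over vehicle, with 54 of 96 positive and 1 higher at an unadjusted p under 0.05, Cox4i2 (log2 fold change 0.33, limma adjusted p = 1), while all genes had 0.782% higher and 0.884% lower. Both drugs against angiotensin II gave -0.01, with 2 higher and 1 lower at that p (median 0.05 without replicate 6), against 2.62% and 1.92% of all genes. The hemisphere interaction gave -0.01, with 0 members at that p (median 0.05 without), against 1.47% and 1.28%.

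In the hippocampus the angiotensin II contrast turned on 1 library. The median of the members was -0.17 (all genes 0.04), with 15 of 96 estimates positive and 0 members at an unadjusted p under 0.05 (limma), against 57.2% of all genes positive, 1.06% higher and 0.314% lower. Without replicate 6 it was 0.01, with 52 of 96 positive and again 0. By complex, the medians of -0.17, -0.05, -0.18, -0.23 and -0.13 (I to IV and ATP synthase) became 0.01, 0.02, 0.00, -0.02 and 0.01.

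Atp5d, the delta subunit of the F1 head, had one of the smallest p values there. It ranged from 194 to 263 FPKM under vehicle (median 237) and from 113 to 225 under angiotensin II (median 205), overlapping between groups. The lowest value belonged to replicate 6, and the other 5 were at 175 or above. The log2 fold change was -0.30 ± 0.15 (SE, n = 6 per group, limma adjusted p = 1) and -0.15 without that library.

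The same library entered the contrasts of both drugs with angiotensin II and of the interaction. Both drugs over angiotensin II gave hippocampal members a median of 0.25 with 6 higher and 0 lower at an unadjusted p under 0.05, and 0.06 with 0 without replicate 6 (limma). All genes had 0.825% in each direction, and 0.289% higher and 0.382% lower without it. The interaction gave 0.33 (all genes 0.11) with 7 higher and 0 lower, and 0.16 with 3 higher without it. All genes had 1.37% higher and 1.03% lower, and 1.19% and 0.586% without it. Uqcrq, a small subunit of complex III, had a log2 fold change of 0.78 in the interaction (limma adjusted p = 0.931) and 0.57 without the library. The interaction also uses the vehicle plus hydralazine group. Its shallow replicate 3, with 1.21 M reads in genes, stayed in the fit without replicate 6.

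In the remaining hippocampal contrasts member medians are given beside those of all genes. Hydralazine over vehicle gave members -0.11 and all genes -0.12, with 0 members at an unadjusted p under 0.05 (limma), against 1.68% of all genes higher and 3.96% lower. Angiotensin II under hydralazine gave 0.17 and all genes 0.15, with 3 members higher, against 4.6% higher and 1.36% lower. Both drugs over vehicle gave 0.07 and all genes 0.03, with 1 higher and 1 lower, against 1.21% and 0.773%. The vehicle plus hydralazine group holds the shallow replicate 3, and without it the first 2 medians were -0.01 and 0.09.

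The angiotensin II effect was also compared between regions by its interaction term. Members had a median of -0.28 (hippocampus minus hemisphere), with 6 lower at an unadjusted p under 0.05 and 0 called (limma), against 1.94% of all genes higher and 0.986% lower at that p. Without the 2 libraries numbered 6 the median was -0.04 and 0 were below that p, against 1.2% and 0.712%. The effect of angiotensin II on these genes was therefore not shown to differ between regions.

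Cell type markers also varied within the treatment groups, and their part in the member medians was not tested. In the hemisphere the astrocyte sum ranged from 460 to 758 FPKM under angiotensin II and from 457 to 560 under vehicle, and 758 was the library numbered 6, the next highest being 531. Its endothelial sum was 91.7 FPKM, against 63.7 to 67.1 in the other 5 of its group. In the hippocampus the choroid plexus sum ranged from 2.69 to 2005 FPKM under angiotensin II (median 14.3) and from 10.1 to 113 under vehicle (median 30.1). The value of 2005 was replicate 4, and replicate 6 was at 5.61. The hippocampal neuron sum ranged from 302 to 346 under angiotensin II and from 240 to 323 under vehicle. The microglial sum of the hippocampal vehicle plus hydralazine group ranged from 157 to 279 FPKM, with the highest in the shallow replicate 3, and the endothelial sum from 23.5 to 93.5.

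**Figure D5:**
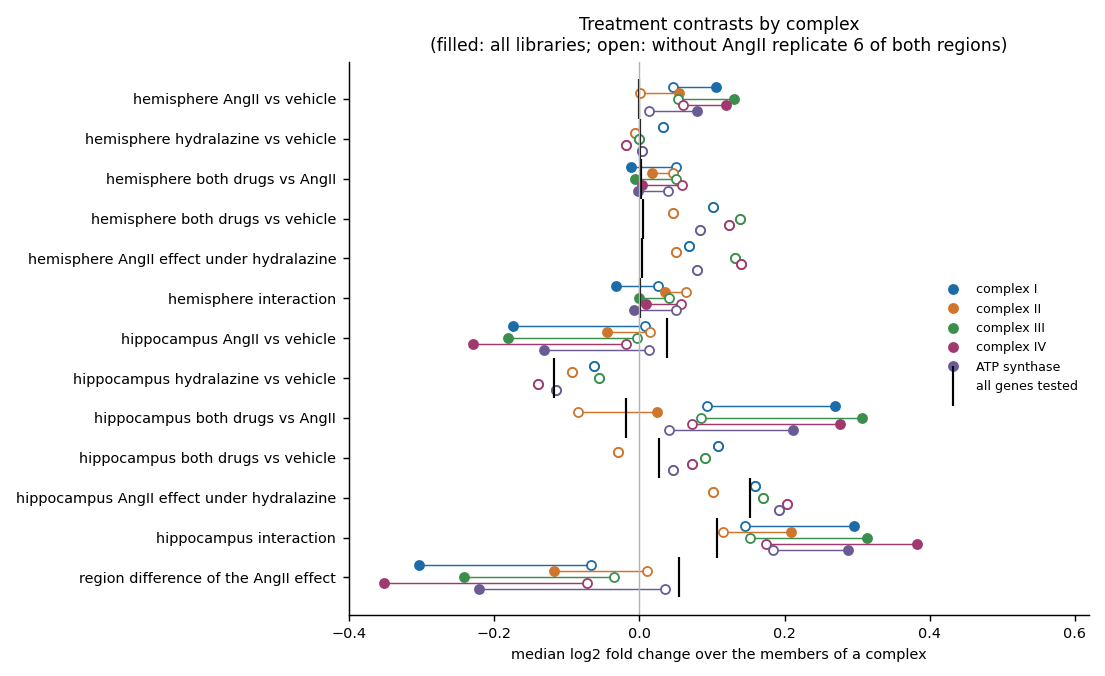
Median log2 fold change over the members of each complex for 13 treatment contrasts; filled circles use all libraries, open circles leave out angiotensin II replicate 6 of both regions and cover the filled ones where both are equal, and black ticks are the median of all genes tested. In the hippocampal angiotensin II contrast the filled circles lie between -0.23 and -0.05 and the open ones between -0.02 and 0.02.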

How the data were processed

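Total RNA (2 ug per library) was sequenced from 48 samples. The authors deposited 1 table of FPKM per gene on GRCm38 (mm10), and the submitters' processing notes list DESeq 1.10.1 with no role; which aligner, counter or strand setting was used is not given in the sources used here. In each library 99.97% to 100% of values were whole multiples of what 1 read is worth, to a tolerance of 0.1 reads, which gave the reads in genes quoted as depth. FPKM values were analysed as log2(FPKM + 0.5), on which fold changes of low genes are understated. Genes reaching 0.5 FPKM in 6 or more libraries were fitted with limma 3.58.1 in R 4.3.3 (trended, robust prior), with 24 libraries per region for treatments and all 48 for regions. P-values were adjusted over all genes tested by the Benjamini-Hochberg method, with calls at an adjusted p under 0.05, over 15 contrasts. The fits were run on simulated data with independent noise for each gene. That run held no library with a deviation shared by many genes, as in the angiotensin II replicates 6. Other steps used Python 3.11.15, pandas 2.3.3, numpy 2.4.6 and matplotlib 3.10.9.

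Members, gene lists and comparisons were chosen with earlier results of these data known. Named genes were the called members with the largest changes, up to 10 in each direction, otherwise the 5 with the smallest p, plus fixed paralogs and core subunits; some genes that fall under this rule are counted in the totals but not reported here by name, nor drawn in the plot of single members. Alternatives covered the pseudocount, filter, scaling, quantile normalization, library weights, a replicate block, length and GC trends and left-out libraries. Without strand information, overlapping genes cannot be told apart: 13 members overlap another gene on the same strand and 34 one on the opposite strand. The 13 rows with the same prefixes that are not protein coding were left out of the tests.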

Additional observations from a re-analysis of the deposited data

Results flagged for a closer look

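In each group of 6 libraries, the highest and lowest library was compared with its nearest neighbour relative to the range of the group. Of 64 combinations of group and measure, 24 had a library farther out than the 95% limit for 6 samples, where chance gives about 1 in 20. The measures overlap, since the complexes make up the mean of all members.

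Hippocampal angiotensin II replicate 6 was the lowest of its group for all members (mean log2(FPKM + 0.5) of 5.15), complex I (5.15), complex II (4.22), complex III (6.44) and ATP synthase (5.58). Its share of reads on members was 1.178% and on the mitochondrial genome 5.74%, both the lowest. The hemisphere library of the same number was the highest for complex IV (5.46) and for the share of reads on members (1.774%), and the lowest for the mitochondrial share (2.77%).

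Hippocampal vehicle plus hydralazine replicate 3, the shallowest library with 1.21 M reads in genes, was the lowest for all members (5.25), complex I (5.40), complex II (3.33) and complex III (6.76). Replicate 5 of the hippocampal group with both drugs was the lowest for complex IV (5.18).

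Hemisphere vehicle replicate 1 was the highest for all members (5.58), complex I (5.54), ATP synthase (5.94) and the mitochondrial share (7.22%). Hemisphere vehicle plus hydralazine replicate 1 was the highest for all members (5.58), complex I (5.54), complex III (6.81), ATP synthase (5.93) and the share of reads on members (1.527%).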

How the results depend on the processing

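The cause of the changes below was not tested. In vehicle mice, members higher in the hippocampus numbered 72, and 68 to 76 with 1 library left out; lower members numbered 2, and 1 to 3 with 1 left out. The lower count was 1 with a filter of 0.1 FPKM, no filter, median-of-ratios scaling, no trended prior or the replicate block, 6 with quantile normalization and 0 with the trend on gene length removed (alone or with the block) or the coding length and GC trends removed. The latter alternative and the removal of libraries listing under 16000 genes were chosen after seeing the data. Averaged over treatments, 75 to 79 members were higher and 4 to 6 lower with 1 library left out. The lower count of 5 became 2 without the length trend, and 3 without both angiotensin II replicates 6 or without the libraries under 16000 genes. Members called under treatment stayed at 0 with any 1 library left out. Library weights called 1 for both drugs against vehicle in the hemisphere, Uqcrh (0.255, limma adjusted p = 0.0433).

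Quantile normalization gave vehicle medians of 0.591 (all members), 0.658 (complex I), 0.46 (III), 0.542 (IV) and 0.549 (ATP synthase), and averaged medians of 0.478 (all), 0.517 (I), 0.389 (III) and 0.471 (ATP synthase). Without the length trend, with or without the block, complex II had 0.752 in vehicle and 0.657 averaged, and complex III -0.09 for angiotensin II under hydralazine in the hippocampus. With coding length and GC trends removed, complex III had -0.131 for that contrast, 0.045 for the hippocampal interaction, 0.621 in vehicle and 0.606 averaged. For the regional difference of the angiotensin II effect, complex I had -0.087 with library weights. Without replicates 6 that contrast had medians of -0.039 (all), -0.067 (I), -0.035 (III) and 0.036 (ATP synthase).

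Single genes changed sign. Without the length trend, with or without the block, vehicle estimates were 0.017 (Sdha), 0.086 (Atp5a1), 0.217 (Atp5b), 0.226 (Uqcrc1) and 0.279 (Ndufs1), and averaged ones 0.01 (Sdha), 0.11 (Atp5a1) and 0.219 (Atp5b). With coding length and GC trends removed they were 0.063 (Sdha), 0.234 (Atp5a1), 0.291 (Atp5b), 0.358 (Uqcrc1) and 0.209 (Ndufs1), and averaged 0.05 (Sdha), 0.248 (Atp5a1) and 0.292 (Atp5b). With quantile normalization they were -0.079 (Uqcrfs1), -0.042 (Sdhd), -0.084 (Ndufv1), 0.024 (Cox7a1), 0.183 (Cox6b2) and 0.31 (Cox8b). With library weights they were 0.049 (Cox7a1), 0.329 (Cox6b2) and 0.029 (Uqcrc1), and in hippocampal treatment contrasts 0.007 (Ndufc1, angiotensin II), 0.197 (Sdhaf1, hydralazine) and 0.012 (Ndufa7, hydralazine). Without the libraries under 16000 genes they were 0.014 (Ndufs1), 0.012 (Uqcrc1), 0.396 (Cox6b2), 0.173 (Cox7a1) and 0.136 (Sdhaf1, hippocampal hydralazine). With a pseudocount of 0.1, Cox4i2 had -0.163. Leaving out 1 hippocampal vehicle library at a time gave ranges of -0.101 to 0.677 (Cox4i2), -0.461 to 0.336 (Cox6b2), -0.599 to 0.281 (Cox7a1), -0.525 to 0.302 (Cox8b) and -0.143 to 0.042 (Uqcrc1).

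Replicate numbers shared by groups did not meet the rule for pairing, a correlation over 0.1 in every pair. Deviations of same-numbered libraries exceeded 0.1 in 3 of 36 pairs in the hemisphere (median 0.004, highest 0.473), 10 of 36 in the hippocampus (median 0.068) and 0 of 24 across regions (median -0.016). Between vehicle and vehicle plus hydralazine all 6 same-numbered pairs were positive in the hemisphere (0.067 to 0.473) and in the hippocampus (0.059 to 0.141). With the replicate block 69 members were higher in vehicle mice, and Atp5a1 (-0.148, limma adjusted p = 0.103) and Ndufa4l2 (adjusted p = 0.0628) no longer passed. The library with 1.21 M reads listed 14 members at 0, Sdhd among them, and 4 hippocampal libraries with 12.69 to 16.7 M listed 6 to 8.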

Other observations

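Among the 13 rows that share a prefix with the members but are not annotated as protein coding, Ndufb1-ps, annotated as a bidirectional promoter lncRNA, had medians of 39.1 FPKM over the hemisphere libraries and 88.3 over the hippocampal ones. The processed pseudogene Ndufab1-ps had 22.2 and 43.0, Ndufb4c 4.76 and 11.2, and Ndufs6b 2.45 and 3.98. All 4 had the higher median in the hippocampus. At lower levels, so did Atp5l2-ps (1.02 and 1.95) and Atp5l-ps1 (0.154 and 0.339), while Cox6c2 had the lower one (0.687 and 0.507). Reads shared with near-identical parent genes make the levels of the processed pseudogenes uncertain. Of the 13 rows, 6 had a median of 0 in both regions.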
